A study of Homo sapiens with 21 samples.

Results

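The comparison described here set HEY cells transfected with mir-429 against HEY cells transfected with a control miRNA, with 24, 48 and 144 h counting equally. HEY is a human ovarian cancer cell line. All 9 arrays titled as mir-429 and all 9 titled as synthetic mirna entered it, which is 18 of the 21 arrays of the series, with 3 arrays per arm at each time. The synthetic miRNA was taken as the negative control microRNA that the treatment protocol names. The other 3 arrays came from untransfected cells at 0 h. They entered no mir-429 minus control difference. They helped to estimate the spread of each gene, to choose its probe set and to filter out dim genes. They also serve as a 0 h level where named. All transfected cells received a lipid reagent, so the control arrays carry the transfection itself. The comparison is of a transient transfection in 1 cell line, and the RNA was amplified from its 3′ end before it was hybridised to expression arrays. The labels call the replicates biological without stating whether they were grown, transfected and harvested apart. Each p-value therefore measures the spread between these arrays, which may be partly technical.

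MicroRNAs bind messenger RNAs through a short seed near their 5′ end, and the messengers they bind are degraded or translated less. The miR-200 family, to which miR-429 belongs, is known for keeping epithelial cells epithelial. It represses ZEB1 and ZEB2, transcription factors that bind E-box sequences in the promoters of epithelial genes and silence them. A gene that rises after the microRNA is added can thus lie downstream of a repressed repressor, whereas a gene that falls may be bound directly. The mature sequences of the family are printed here because the seed, bases 2 to 8, in capitals, divides them into groups. They are the RefSeq entries of build GRCh38.p14, 5′ to 3′, and the chemically made RNA used for the transfection is not sequenced in the sources used here. miR-429 lies at chr1:1169055-1169076 on the plus strand.
hsa-miR-429: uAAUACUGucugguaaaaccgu
hsa-miR-200b-3p: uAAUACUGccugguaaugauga
hsa-miR-200c-3p: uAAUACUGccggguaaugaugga
hsa-miR-200a-3p: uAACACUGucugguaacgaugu
hsa-miR-141-3p: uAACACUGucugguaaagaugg
The seed AAUACUG is shared by miR-429, miR-200b-3p and miR-200c-3p, and the seed AACACUG by miR-200a-3p and miR-141-3p.

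The values are log2 RMA expression values, so a difference of 1 is a 2-fold change. The averaged effect is the mean of the 3 within-time differences, mir-429 minus control, and is given ± SE from a limma fit over 12879 genes. A gene was called where its Benjamini-Hochberg adjusted p over those genes was under 0.05. It was counted as same-direction where it was called in the averaged effect and its difference had the same sign at 24, 48 and 144 h. Array medians lay between 3.95 and 4.29. The difference between 3′ and 5′ control probe sets of GAPDH and ACTB, which grows as transcripts get shorter, was 2.54 to 3.25 on the mir-429 arrays and 4.0 to 4.43 on the control arrays at 24 h. At 48 h it averaged 8.55 in mir-429 and 7.83 in control cells, and at 144 h 3.35 in mir-429 and 3.90 in control cells. Of the ovarian cancer line markers, 8 of 14 (KRT7, KRT8, KRT18, PAX8, WT1, MUC1, VIM and CDH2) lay above the array median on every array, and CDH1, EPCAM and MUC16 lay below it on every array. None of the 13 leukocyte markers with a probe set passed the filter on dim genes.

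The averaged effect was called for 3602 genes (28% of those tested), of which 1621 (12.6%) were higher and 1981 (15.4%) lower in mir-429 than in control cells. Same-direction genes numbered 1024 higher (7.95% of all tested) and 1476 lower (11.5%). Their median averaged differences were 0.36 and -0.39, and the median over all genes tested was -0.02. The split between the directions moved with the scaling, since after cyclic loess between arrays 1320 genes were same-direction higher and 1178 lower. Only 53 of the higher and 46 of the lower same-direction genes reached an averaged difference of 1. A shared sign alone was common, as 4413 genes (34.3%) had it with no call needed. The mir-429 and control values were apart at all 3 times for 205 of the same-direction genes that were higher (1.59% of all tested) and for 307 that were lower (2.38%).

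A call at each single time was much rarer. It was reached at all 3 times, with 1 sign, by 48 higher genes (0.373%) and 76 lower genes (0.59%). These counts moved both ways with the fit: they were 24 and 28 with the 3′ minus 5′ difference as a covariate and 117 and 182 with array weights. Control arrays at 144 h decided part of them: without replicate 3 the counts were 28 and 47, and without replicate 2 they were 32 and 40. Leaving out mir-429 replicate 1 at 144 h gave 31 and 43, and leaving out mir-429 replicate 2 gave 37 and 41. The same-direction counts with the covariate were 763 higher and 1087 lower, and 672 and 990 of these were same-direction without it too. The opposite sign at 1 time or more was found for 597 of the genes called higher in the average and for 505 of those called lower, and that time was 144 h for 511 and 318 of them.

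**Figure D1:**
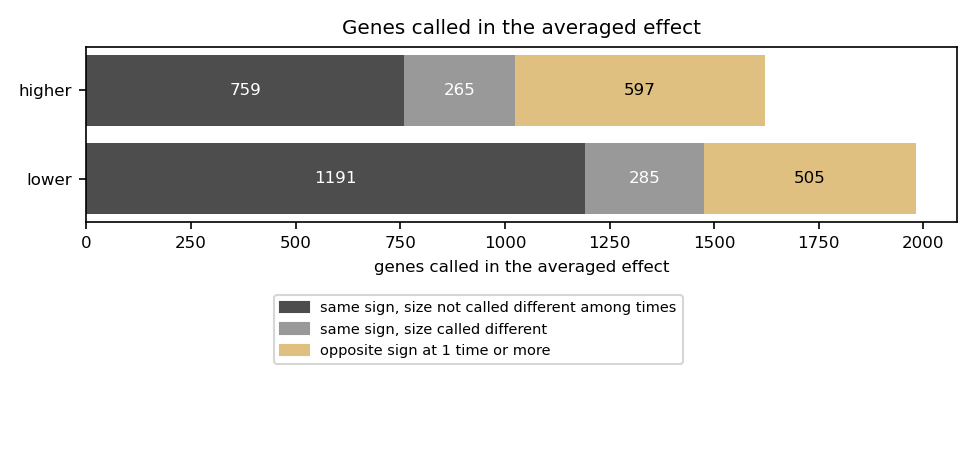
Genes called in the averaged effect, higher (top) and lower (bottom) in mir-429 cells, counted along the horizontal axis. Dark parts are same-direction genes whose effect was not called different among the times, grey parts (265 higher, 285 lower) those whose effect was, and tan parts (597 and 505) genes with an opposite sign at 1 time or more.

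The 10 higher genes described first had arms apart at every time and the largest smallest effects as measured. ZBED2, which encodes a BED-type zinc finger protein, had a smallest measured difference of 2.67, at 144 h. At 24 h its values were 6.60, 6.39 and 6.48 in mir-429 cells and 2.18, 2.31 and 2.26 in control cells, and at 48 h they were 7.59, 7.87 and 7.75 in mir-429 cells and 3.04, 1.56 and 2.84 in control cells. At 144 h they were 5.60, 4.83 and 5.31 in mir-429 cells and 2.87, 1.95 and 2.90 in control cells. No array of either arm overlapped the other arm, and the averaged effect was 4.06 ± 0.18 (adjusted p = 2.7e-11). All control values lay below their array medians, so the difference is a bound: with dim values raised to the median the average was at least 2.26, and the difference at 144 h at least 1.01. With dim values raised, the 144 h difference of ZBED2 was the smallest of the 10 genes, with MAP7 next at 1.03.

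CDS1, which makes the phospholipid intermediate CDP-diacylglycerol, was also dim in control cells. Over the 9 arrays of an arm its lowest, median and highest values were 5.80, 6.74 and 7.41 in mir-429 cells and 2.82, 4.02 and 4.7 in control cells. The arms did not overlap even with the times pooled, and the averaged effect was at least 2.34 (2.75 ± 0.19 as measured, adjusted p = 5.21e-09). MAP7, a microtubule-binding protein that recruits kinesin-1, had values of 7.33, 6.87 and 7.31 in mir-429 cells and 5.01, 5.18 and 4.86 in control cells at 24 h. At 48 h MAP7 gave 7.60, 7.86 and 7.71 in mir-429 cells and 5.14, 4.87 and 3.8 in control cells, and at 144 h 5.95, 6.23 and 5.94 in mir-429 cells and 5.02, 5.04 and 4.96 in control cells. Every mir-429 array was above every control array of its time. The averaged effect was 2.1 ± 0.13 (adjusted p = 2.14e-09), and it shrank to 1.03 at 144 h (adjusted p of the time dependence = 0.000884).

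FGFBP1, a secreted protein that frees fibroblast growth factors from the matrix, had its largest effect at the latest time. Its values at 24 h were 9.13, 9.04 and 9.12 in mir-429 cells and 6.92, 7.29 and 7.27 in control cells. At 48 h they were 10.27, 9.60 and 10.14 in mir-429 cells and 8.42, 8.35 and 8.43 in control cells, and at 144 h 11.50, 11.29 and 11.29 in mir-429 cells and 8.96, 8.42 and 8.33 in control cells. The arms were apart at each time. The averaged effect was 2.11 ± 0.10 (adjusted p = 3.55e-11), with differences of 1.94, 1.6 and 2.79 at 24, 48 and 144 h. SCEL, sciellin, a precursor of the cornified envelope of squamous cells, differed by 1.28 at 48 h and 2.36 at 144 h. Its control cells were dim at 24 h, where the difference was at least 0.42 (1.14 as measured).

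KISS1, the precursor of kisspeptin and a described metastasis suppressor, had the most even effect of these 10 genes, with the largest p for time dependence: 1.2 at 24 h, 1.38 at 48 h and 1.38 at 144 h (adjusted p of the time dependence = 0.922). At 24 h its values were 7.3, 7.20 and 7.33 in mir-429 cells and 6.11, 5.67 and 6.46 in control cells. At 48 h they were 6.41, 6.43 and 7.0 in mir-429 cells and 6.16, 4.48 and 5.05 in control cells, and at 144 h 9.24, 9.12 and 8.95 in mir-429 cells and 7.99, 7.65 and 7.53 in control cells. The arms were apart at each time and came closest at 48 h. The other 4 genes higher by this rule were FGD6, an exchange factor for the GTPase CDC42 (1.70 ± 0.10), EXPH5, a Rab27 effector in vesicle traffic (1.85 ± 0.07), PRCD, known from photoreceptor discs (1.54 ± 0.08), and C1orf116 (1.25 ± 0.11 as measured, at least 1.23 with dim control values raised). Their adjusted p ranged from 4.84e-12 for EXPH5 to 8.4e-08 for C1orf116.

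Of the genes lower at every time, DNER, a transmembrane protein with Delta- and Notch-like EGF repeats, had the largest smallest effect. At 24 h its values were 7.75, 7.34 and 7.35 in mir-429 cells and 8.91, 8.63 and 9.09 in control cells. At 48 h they were 7.02, 6.62 and 6.74 in mir-429 cells and 8.79, 9.24 and 8.68 in control cells, and at 144 h 6.41, 6.55 and 6.5 in mir-429 cells and 7.77, 7.88 and 7.86 in control cells. No values overlapped within a time, and the averaged effect was -1.62 ± 0.09 (adjusted p = 3.08e-10).

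FAM78B, a protein of unknown function, had 5.06, 5.27 and 5.35 in mir-429 cells and 6.37, 6.70 and 6.41 in control cells at 24 h. At 48 h it had 4.4, 5.09 and 5.57 in mir-429 cells and 6.35, 6.37 and 5.90 in control cells, and at 144 h 4.58, 4.83 and 4.95 in mir-429 cells and 6.27, 6.65 and 6.76 in control cells. The mir-429 arrays spread most at 48 h but stayed below the control arrays. Its averaged effect was -1.41 ± 0.13 (adjusted p = 3.63e-07), and it was largest at 144 h, at -1.78. The long non-coding RNA LINC01704 (-1.55 ± 0.07, adjusted p = 4.23e-11) and NREP, a small protein described in neurons and myofibroblasts (-1.25 ± 0.08, adjusted p = 3.04e-09), were largest at 48 h, at -2.12 and -1.89. NREP rests on 1 probe set, and its other probe set above the filter gave -0.05, 0.01 and -0.46 at 24, 48 and 144 h.

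The remaining 6 genes lower by the rule were dim in mir-429 cells at 1 time or more, so their effects are bounds. Of these, TNIP3 and ENDOU were not called at 144 h (adjusted p = 0.127 and 0.105). CD93, a lectin-like receptor of endothelial cells, had an averaged effect of -1.76 ± 0.12 as measured (adjusted p = 4.18e-09) and fell by at least 1.05 with dim values raised to the array median. The measured effects and the effects with dim values raised were -1.35 ± 0.15 and -0.94 for the aggrecanase ADAMTS5, -1.27 ± 0.20 and -1.0 for TNIP3, an inhibitor of NF-kB signalling, and -0.98 ± 0.14 and -0.82 for GALNT16, which starts O-linked sugar chains. TFEC, a transcription factor related to MITF, and the endoribonuclease ENDOU gave -0.28 and -0.24 with dim values raised, against -1.12 ± 0.20 and -1.11 ± 0.18 as measured. Both arms of TFEC were dim at 48 and 144 h, and both arms of ENDOU at 144 h. The raised value of ENDOU missed the threshold (adjusted p = 0.065). Among all same-direction genes, the lower arm was dim at 1 time or more for 52 of the 1024 higher genes (5.08%) and for 173 of the 1476 lower genes (11.7%).

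**Figure D2:**
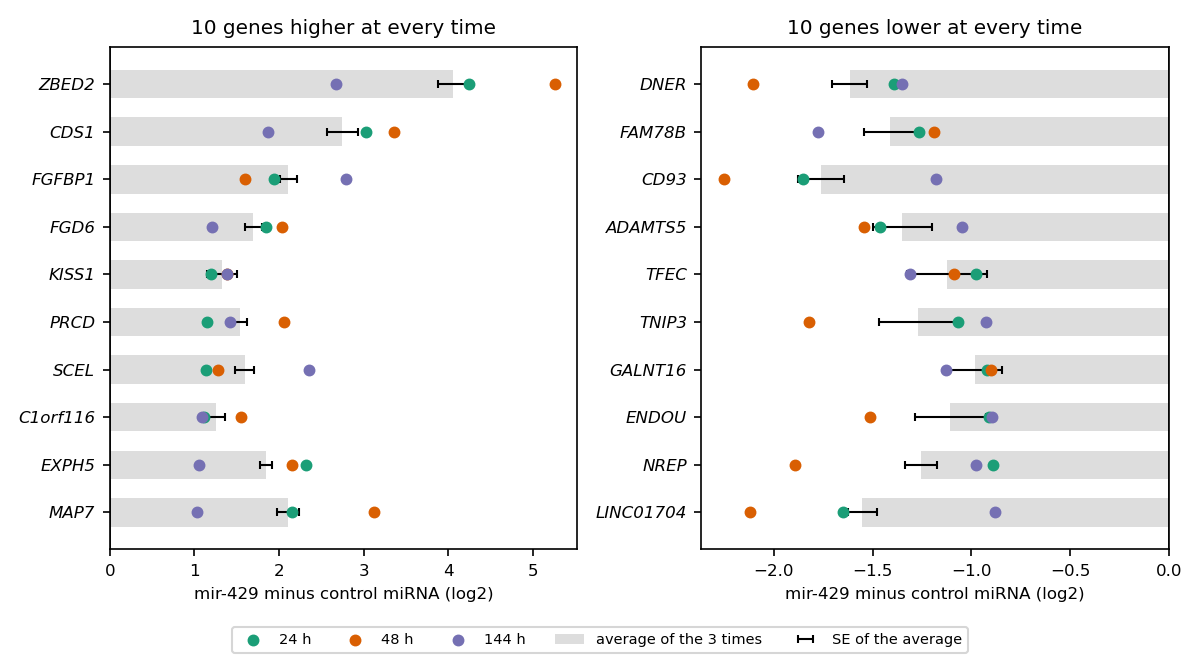
Differences between mir-429 and control cells on the log2 scale (horizontal axis) for the 10 higher (left) and 10 lower (right) genes with the largest smallest effect. Dots are the differences at 24, 48 and 144 h, grey bars their average and black lines its SE. All differences are as measured, dim values included. ZBED2 reaches 5.26 at 48 h, and DNER lies between -1.35 and -2.11.

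The untransfected arrays show on which side of the 0 h level the arms lay. For PARD6B, a polarity protein of tight junctions, mir-429 cells stood 0.04, 0.04 and 0.03 above untransfected cells at 24, 48 and 144 h, and control cells differed from them by -1.78, -1.15 and -0.58. MAP7 moved away in both arms but further in mir-429 cells, by 1.82, 2.37 and 0.69 against -0.34, -0.75 and -0.34 in control cells. KISS1 was below the untransfected level in both arms at 24 and 48 h: by -0.61 and -1.28 in mir-429 cells and by -1.81 and -2.67 in control cells. Averaged over the times, mir-429 cells lay above untransfected cells for 725 of the 1024 higher same-direction genes (70.8%), and control cells lay below them for 750 (73.2%). For 505 (49.3%) the mir-429 arm was the one further from the 0 h level. Of the 1476 lower genes, mir-429 cells lay below untransfected cells for 1208 (81.8%), control cells lay above them for 857 (58.1%), and the mir-429 arm was further away for 975 (66.1%). These positions carry no test, and both arms are set against the same 3 untransfected arrays.

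**Figure D3:**
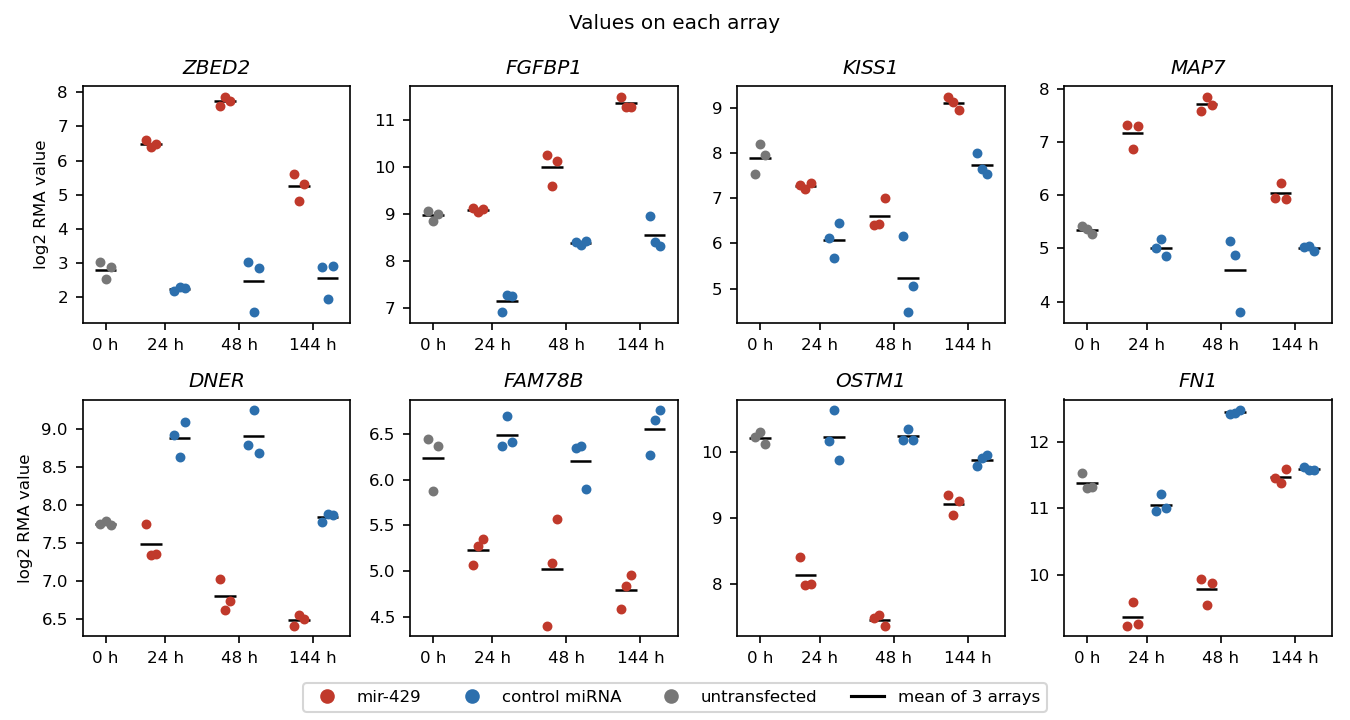
Log2 RMA values on each array (points) and group means (lines) of 8 genes, for untransfected cells (grey, 0 h) and, at each time, mir-429 (red, left) and control cells (blue, right). FGFBP1 in mir-429 cells climbs to a mean of 11.4 at 144 h, and FN1 arms meet at 144 h on the probe set shown (difference -0.12).

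Every same-direction member of the 4 epithelial gene lists was higher in mir-429 cells. The lists were chosen with earlier results of these arrays known, and they are set beside the 7.95% higher and 11.5% lower of all genes. Of 13 tested desmosome and keratin genes, 8 were same-direction higher (61.5%) and none was same-direction lower, with a list median of 0.39. They were the desmosome genes DSP, DSC2, DSG2, PKP2 and PKP3 and the keratins KRT7, KRT8 and KRT18. Of 17 adherens and tight junction genes 6 were same-direction higher (35.3%) and none same-direction lower, with a median of 0.24. Of 20 other epithelial genes 9 were same-direction higher (45%) and none same-direction lower, with a median of 0.35.

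DSP, desmoplakin, which ties desmosomes to keratin filaments, gave 9.48, 9.28 and 9.23 in mir-429 cells and 8.19, 7.90 and 8.32 in control cells at 24 h. At 48 h DSP gave 10.26, 10.13 and 10.50 in mir-429 cells and 8.92, 8.78 and 8.72 in control cells, and at 144 h 9.46, 9.50 and 9.37 in mir-429 cells and 8.63, 8.63 and 8.49 in control cells. It was called at every time, and its averaged effect was 1.18 ± 0.07 (adjusted p = 7.53e-10). The plakophilins PKP2 (1.31 ± 0.12) and PKP3 (1.34 ± 0.15), which link desmosomal cadherins to desmoplakin, were not called at 144 h, where they differed by 0.62 and 0.72 (adjusted p = 0.0973 and 0.113). KRT8 and KRT18, a keratin pair of simple epithelia, had averaged effects of 0.62 ± 0.13 and 0.41 ± 0.08. With the 3′ minus 5′ covariate both lost the shared sign. KRT18 differed by only 0.01 at 24 h and lost it also after cyclic loess or quantile normalization and without control replicate 1, control replicate 2 or mir-429 replicate 2 at 24 h. KRT7 was higher by 0.93 at 48 h, where its other probe sets above the filter gave 1.28, -0.06 and -0.18. All of them were higher on average.

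In the junction list PATJ, a scaffold of the Crumbs polarity complex, rose by 1.21 ± 0.08 (adjusted p = 2.54e-09) and was called at every time. Its values were 5.72, 5.82 and 5.66 in mir-429 cells and 4.65, 5.08 and 4.64 in control cells at 24 h, and 5.62, 5.57 and 5.87 in mir-429 cells and 4.88, 5.02 and 5.10 in control cells at 144 h. PARD6B was higher in mir-429 than in control cells by 1.21 ± 0.10 (adjusted p = 4.09e-08) and was called at every time as well. TJP1, which encodes the tight junction scaffold ZO-1, differed by 1.04 and 0.89 at 24 and 48 h but by 0.04 at 144 h (adjusted p = 0.87). The others were OCLN, PALS1 and LLGL2.

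Of 7 tested epithelial splicing and transcription factors, ESRP1 alone was same-direction (14.3% of the list, median 0.30). ESRP1 directs the epithelial form of alternative splicing. It had 6.72, 6.40 and 6.82 in mir-429 cells and 5.67, 5.79 and 5.70 in control cells at 24 h, 8.29, 8.16 and 8.02 in mir-429 cells and 5.08, 5.33 and 5.30 in control cells at 48 h, and 7.56, 7.06 and 7.17 in mir-429 cells and 6.39, 6.38 and 6.34 in control cells at 144 h. The arms were apart at every time, and the averaged effect was 1.58 ± 0.08 (adjusted p = 6.41e-11). Its size differed among the times (adjusted p = 1.43e-06), with 2.92 at 48 h. CDH1, E-cadherin, stayed at 2.20 to 3.35 in mir-429 cells and 2.35 to 3.68 in control cells, and EPCAM at 2.07 to 3.07 in mir-429 cells and 1.55 to 2.57 in control cells. Both were too dim to be tested.

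Promoters are shown for 3 epithelial genes called at every time, because they hold the letters CACCTG or CAGGTG, the E-box that ZEB proteins bind. Each is the reverse complement of the other, so a match on either strand was counted once. The windows run from 250 bases before to 50 after the RefSeq gene start in GRCh38.p14, on the gene's strand, and capitals mark the matches. PATJ lies at chr1:61742230-61742529 on the plus strand, MAP7 at chr6:136550373-136550672 on the minus strand and CDS1 at chr4:84582877-84583176 on the plus strand.
PATJ: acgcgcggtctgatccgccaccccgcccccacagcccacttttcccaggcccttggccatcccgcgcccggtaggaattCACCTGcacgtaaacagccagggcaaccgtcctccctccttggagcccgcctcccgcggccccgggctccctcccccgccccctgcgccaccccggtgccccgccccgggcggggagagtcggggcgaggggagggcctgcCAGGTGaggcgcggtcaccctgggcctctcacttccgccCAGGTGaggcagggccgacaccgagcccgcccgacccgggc
MAP7: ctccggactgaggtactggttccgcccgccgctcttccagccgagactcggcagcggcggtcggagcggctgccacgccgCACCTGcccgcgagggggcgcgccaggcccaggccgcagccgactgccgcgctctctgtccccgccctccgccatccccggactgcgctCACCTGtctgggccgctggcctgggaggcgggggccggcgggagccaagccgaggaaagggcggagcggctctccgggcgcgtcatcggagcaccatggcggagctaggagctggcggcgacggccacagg
CDS1: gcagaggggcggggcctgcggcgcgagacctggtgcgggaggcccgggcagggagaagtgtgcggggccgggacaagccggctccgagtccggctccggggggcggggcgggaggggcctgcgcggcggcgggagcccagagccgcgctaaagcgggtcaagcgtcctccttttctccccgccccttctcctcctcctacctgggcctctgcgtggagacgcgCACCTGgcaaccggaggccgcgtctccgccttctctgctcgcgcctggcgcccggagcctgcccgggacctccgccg
PATJ held 3 matches, MAP7 held 2 and CDS1 held 1. Among the other higher genes with the largest smallest effect, C1orf116 held 1. The windows of ZBED2, FGFBP1, KISS1, FGD6, PRCD, SCEL and EXPH5 held none. Of the genes called higher at every time, 15 of the 37 with a promoter in the table held a match (40.5%), against 8 of 58 called lower at every time (13.8%) and 1902 of all 10439 tested genes with a promoter (18.2%). Among all same-direction genes the shares were 189 of 836 higher (22.6%) and 196 of 1211 lower (16.2%). The groups called at every time are small, the genes were chosen by their values, and a match says only that the letters are there.

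Described targets of the miR-200 family, a list chosen with earlier results of these arrays known, were more often lower than higher. All genes tested were also more often same-direction lower (11.5%) than higher (7.95%). Of 71 targets tested, 20 were same-direction lower (28.2%) and 2 higher (2.82%), with a list median of -0.08. Of the 12 tested transcription factors of the epithelial-mesenchymal transition, 4 were same-direction lower (33.3%), namely ZEB1, ZEB2, TCF4 and FOXF1, and none was higher, with a median of -0.02. The sign of TCF4 at 24 h depended on the probe set. Its other probe sets above the filter gave 0.22, 0.14, 0.13, 0.05, -0.27, -0.47 and -0.65 there, and all were lower on average.

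ZEB1 had 9.38, 8.85 and 8.91 in mir-429 cells and 10.59, 10.32 and 10.11 in control cells at 24 h. At 48 h it had 9.30, 9.14 and 9.28 in mir-429 cells and 10.91, 11.16 and 10.79 in control cells, and at 144 h 10.51, 10.53 and 10.32 in mir-429 cells and 10.56, 10.67 and 10.56 in control cells. The arms were apart at each time, but barely so at 144 h, where the difference was -0.14 (adjusted p = 0.655). The averaged effect was -1.05 ± 0.08 (adjusted p = 4.28e-08), and its size differed among the times (adjusted p = 0.00018). ZEB2 differed by -0.63 ± 0.10 on average (adjusted p = 0.000191), with overlapping arms at 24 and 144 h, and without 48 h the average was -0.38 (adjusted p = 0.0572).

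OSTM1, which works with a chloride transporter of lysosomes, was the target on this list called at every time. Its values were 8.41, 7.98 and 8.0 in mir-429 cells and 10.17, 10.63 and 9.88 in control cells at 24 h, and 7.48, 7.53 and 7.37 in mir-429 cells and 10.18, 10.35 and 10.18 in control cells at 48 h. At 144 h they were 9.34, 9.05 and 9.26 in mir-429 cells and 9.78, 9.91 and 9.95 in control cells, and the arms did not overlap at any time. The averaged effect was -1.84 ± 0.09 (adjusted p = 6.37e-11). The 144 h part rests on the probe set that stands for the gene: its other probe sets above the filter differed by -1.39 to -2.24 at 24 h and by -2.41 to -2.70 at 48 h, but by 0.06, 0.08 and -0.01 at 144 h.

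FN1, fibronectin, and LOX, which crosslinks collagen, were same-direction lower. On the probe sets that stand for them, the effects were smallest at 144 h. FN1 had 9.93, 9.54 and 9.87 in mir-429 cells and 12.42, 12.44 and 12.48 in control cells at 48 h, and 11.46, 11.38 and 11.59 in mir-429 cells and 11.63, 11.58 and 11.58 in control cells at 144 h. The arms were far apart at 48 h and overlapped at 144 h. FN1 averaged -1.49 ± 0.07 and LOX -1.73 ± 0.08 (adjusted p = 3.55e-11 and 3.14e-11), with differences of -0.12 and -0.37 at 144 h. WIPF1, an actin regulator that binds WASP, averaged -1.46 ± 0.07 and CFL2, the muscle form of cofilin, -0.83 ± 0.09, with -0.17 and -0.21 at 144 h. The 3 other probe sets of WIPF1 above the filter averaged only -0.20, -0.55 and -0.06, and the first and last of them were above 0 at 144 h. The other probe set of LOX averaged -0.63. Other probe sets of FN1 above the filter gave -0.05, -0.11, -0.13, -0.33, -0.44 and -0.87 at 144 h. Those at -0.44 and -0.87 had their smallest effect at 24 h, at -0.18 and -0.23.

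The wider mesenchymal and matrix list went both ways: 8 of 49 tested genes were same-direction higher (16.3%) and 11 lower (22.4%), with a median of -0.12. The shares over all genes tested were 7.95% and 11.5%. COL8A1, a short-chain collagen, rose by at least 1.18 (2.20 ± 0.16 as measured, adjusted p = 1.35e-08), whereas COL1A1, the main chain of type I collagen, changed by -0.59 ± 0.09 (adjusted p = 6.24e-05). The other probe sets of COL1A1 above the filter averaged only -0.25 and -0.09. FAP, a surface protease of activated fibroblasts, changed by -0.81 ± 0.09 and ACTA2, smooth muscle actin, by -0.64 ± 0.09. VIM, vimentin (0.01 ± 0.06, adjusted p = 0.952), and CDH2, N-cadherin (0.06 ± 0.05, adjusted p = 0.414), did not pass the test. VIM ran from 12.95 to 13.38 in mir-429 cells and from 12.96 to 13.37 in control cells.

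Some of these genes also mark cells that the culture should not hold. The counts that follow stand beside 11.5% of all genes tested that were same-direction lower. The fibroblast list was lower for 3 of 5 tested members (COL1A1, FAP and ACTA2), and its mean level over 11 genes ran from 4.0 to 4.29 in mir-429 and from 4.17 to 4.47 in control arrays, with COL1A2, COL3A1, LUM, PDGFRA and POSTN below the median on every array. The endothelial list was same-direction lower for KDR and CD93 of 9 tested, and its mean level over 13 genes ran from 4.71 to 5.70 in mir-429 and from 5.08 to 5.61 in control arrays, with CDH5, TIE1, EGFL7 and ROBO4 above the median and EMCN and CD34 below it on every array. The part of other cells in these results was not tested, and in such bulk RNA fewer cells of a type and less RNA per cell cannot be told apart. KDR, a receptor for VEGF, is the weakest call here at -0.42 ± 0.13 (adjusted p = 0.0226). It was lost with the covariate (adjusted p = 0.0963) and whichever time was left out.

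**Figure D4:**
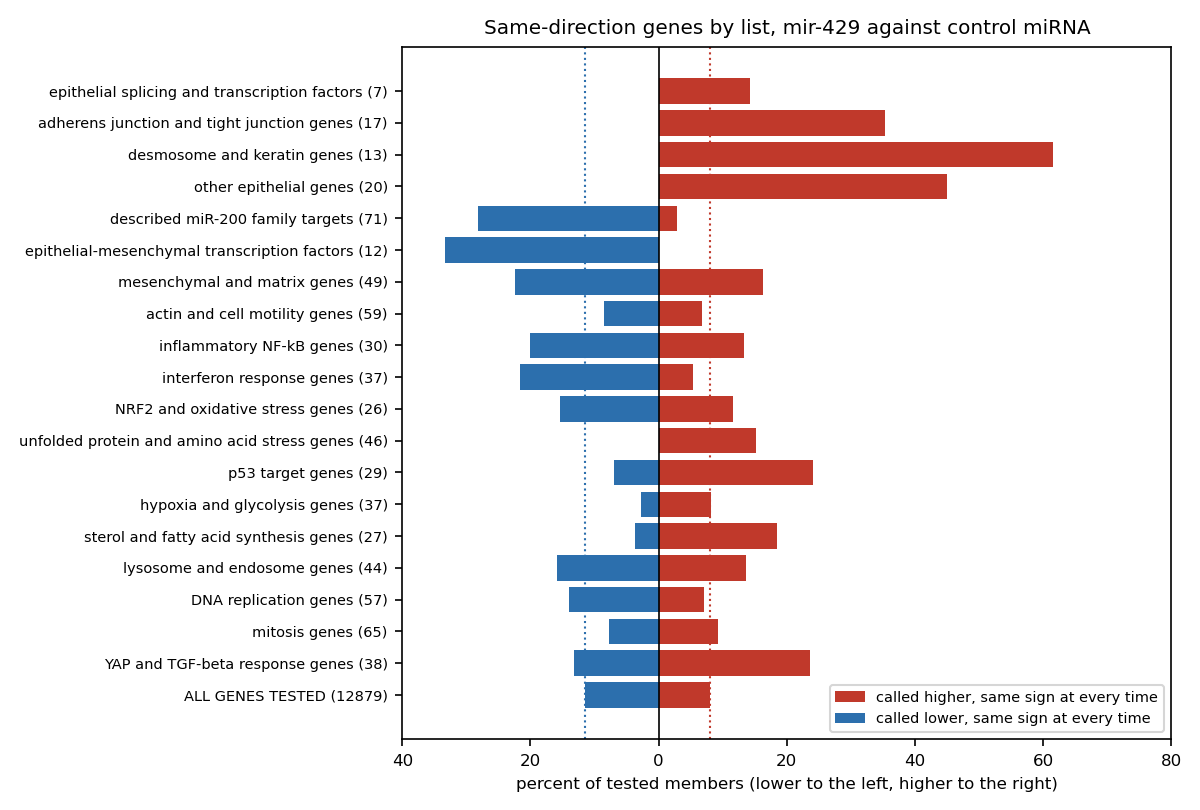
Percent of the tested members of each gene list (number in brackets) that were same-direction higher (red, to the right) or lower (blue, to the left) in mir-429 cells. Dotted lines mark all genes tested (7.95% and 11.5%). Desmosome and keratin genes reach 61.5% higher, and no epithelial list has a same-direction lower member.

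Among inflammatory NF-kB genes, 4 of 30 tested were same-direction higher (13.3%, against 7.95% of all genes tested) and 6 lower (20%, against 11.5%). The list median was -0.22. The neutrophil chemokines CXCL1 and CXCL3 changed by -1.22 ± 0.07 and -1.31 ± 0.09 (adjusted p = 8.66e-10 and 9.89e-09), and BCL2A1, an anti-apoptotic NF-kB target, by -1.39 ± 0.11 (adjusted p = 2.72e-08). CXCL3 had 6.42, 6.33 and 6.62 in mir-429 cells and 9.22, 9.40 and 9.16 in control cells at 48 h, and 7.01, 6.64 and 7.09 in mir-429 cells and 7.16, 7.23 and 7.37 in control cells at 144 h. The arms were apart at both times but by far less at 144 h. BCL2A1 differed by only -0.04 at 144 h, and its shared sign was lost after cyclic loess and without control replicate 1 or 2 at 144 h. On the higher side stood IL1A, ICAM1, PTX3 and SOD2.

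Of 37 interferon response genes 8 were same-direction lower (21.6%) and 2 higher (5.41%), with a median of -0.09. The antiviral genes SAMD9L (-0.72 ± 0.09), IFI16, a sensor of DNA (-0.41 ± 0.09), and IFIT1, which binds viral RNA (-0.57 ± 0.14), were the members with the smallest p, at 5.3e-06, 0.00154 and 0.00588 adjusted. Both arms of IFIT1 were dim at 24 h. The other probe sets of IFI16 above the filter averaged -0.25 and -0.24 but gave 0.04 and 0.03 at 24 h. Of 26 NRF2 and oxidative stress genes 3 were higher and 4 lower, with a median near 0. Among all genes tested the shares were 7.95% higher and 11.5% lower, so these counts lie near the background. HMOX1, haem oxygenase, changed by -1.83 ± 0.14 (adjusted p = 1.54e-08). Its values at 24 h were 7.22, 7.38 and 7.40 in mir-429 cells and 9.64, 9.89 and 10.19 in control cells, against a mean of 6.21 in untransfected cells, so both arms stood above the 0 h level at that time. SLC7A11, the cystine importer, was higher by 0.55 ± 0.08 in the same list. Its other probe sets above the filter averaged 0.72 and 0.03, and the latter gave -0.18 at 144 h.

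Stress genes of the unfolded protein and amino acid responses were same-direction higher for 7 of 46 (15.2%) and lower for none, with a median of 0.11. Of all genes tested, 7.95% were same-direction higher and 11.5% lower. DDIT4, an inhibitor of mTOR signalling, was higher in mir-429 than in control cells by 0.86 ± 0.10 (adjusted p = 4.4e-06). Its values were 10.00, 10.02 and 10.01 in mir-429 cells and 9.66, 9.83 and 9.79 in control cells at 24 h. At 48 h DDIT4 gave 9.09, 9.09 and 9.34 in mir-429 cells and 7.63, 8.0 and 8.21 in control cells, and at 144 h 10.32, 9.45 and 9.75 in mir-429 cells and 8.89, 8.78 and 8.52 in control cells. The arms never overlapped. Against untransfected cells, the 48 h means of DDIT4 differed by -0.28 in mir-429 cells and by -1.50 in control cells. ATF3, a stress transcription factor, was higher by 0.39 ± 0.07, but the mean of its probe sets gave 0.03 (adjusted p = 0.77). Of 29 p53 target genes 7 were same-direction higher (24.1%, against 7.95% of all genes) and 2 lower (6.90%, against 11.5%), with a median of 0.12. CDKN1A, the cell cycle inhibitor p21, was higher by 0.50 ± 0.07 (adjusted p = 4.07e-05) and RRM2B, a ribonucleotide reductase subunit, by 0.44 ± 0.07 (adjusted p = 0.000166). Both had arms apart at every time. PLK2, a polo-like kinase, had 0.37 ± 0.06 and lost its call without 24 h (0.22, adjusted p = 0.0605).

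Genes of the YAP and TGF-beta responses were same-direction higher for 9 of 38 (23.7%, against 7.95% of all genes tested) and lower for 5 (13.2%, against 11.5%). Their median was 0.05. CCN2, a matrix protein induced by YAP, was called at every time, with 0.77, 0.56 and 0.88 at 24, 48 and 144 h and an average of 0.73 ± 0.08 (adjusted p = 3.07e-06). PMEPA1, a feedback inhibitor of TGF-beta signalling, and TEAD1, a partner of YAP, averaged 0.69 ± 0.07 and 0.54 ± 0.07, with 0.05 and 0.13 at 144 h. Other probe sets above the filter gave -0.66 and 0.20 for PMEPA1 and -0.35 and 0.05 for TEAD1 at 144 h.

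The next lists are set beside the 7.95% higher and 11.5% lower of all genes tested. Of 27 sterol and fatty acid synthesis genes 5 were same-direction higher (18.5%) and 1 lower (3.70%), with a median of 0.10. Of 44 lysosome and endosome genes 6 were higher (13.6%), with the channel MCOLN3 at 1.17 ± 0.08, and 7 lower (15.9%), with the protease CTSS at -0.77 ± 0.08 (median -0.03). Of 57 DNA replication genes 4 were higher (7.02%) and 8 lower (14%), among them CCNE1, cyclin E, at -0.45 ± 0.06 (median 0.00). Of 65 mitosis genes 6 were higher (9.23%) and 5 lower (7.69%), with a median of 0.03. The shares were 6.78% and 8.47% of 59 actin and motility genes (median 0.05) and 8.11% and 2.70% of 37 hypoxia and glycolysis genes (median 0.03). The shares of the replication, mitosis and actin lists lay near those of all genes. In the replication, mitosis, hypoxia and sterol lists, the members named by the rule were CCNE1, PCNA, RFC5, MAD2L1, SKA3, CDC25B, SLC2A1, ANKRD37, INSIG2, IDI1, STARD4 and EBP, and only CCNE1 and MAD2L1 (0.46 ± 0.08) kept their call under all alternatives.

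A shared sign did not mean a shared size. The F test of time dependence called 2709 genes (21% of those tested), among them 265 of the 1024 higher and 285 of the 1476 lower same-direction genes. The effect of the higher genes was largest at 24 h for 526, at 48 h for 396 and at 144 h for 102. Of the lower genes it was largest at 24 h for 479, at 48 h for 687 and at 144 h for 310. Median differences of the higher genes at 24, 48 and 144 h were 0.47, 0.41 and 0.19, and those of the lower genes were -0.38, -0.46 and -0.28. Without mir-429 replicate 1 at 24 h the time dependence was called for 1783 genes, and with the 3′ minus 5′ covariate for 1555. The 48 h arrays of both arms stood apart in that difference. For GAPDH alone it averaged 7.01 in control and 7.88 in mir-429 cells at 48 h, against group means of 0.74 to 1.58 elsewhere. What belongs to 48 h as a time and what to the state of the RNA on those arrays cannot be told apart. At 24 h the arms did not overlap in the mean of GAPDH and ACTB, with 2.54 to 3.25 in mir-429 and 4.0 to 4.43 in control cells. The mir-429 effect at 24 h therefore cannot be fully separated from the state of the RNA.

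GPR65, a receptor that senses protons, had the widest span of effects among the same-direction genes named here, and its effect came late. It had 4.87, 4.43 and 4.69 in mir-429 cells and 3.13, 3.73 and 4.19 in control cells at 24 h. At 48 h it had 6.57, 5.94 and 5.95 in mir-429 cells and 4.92, 4.58 and 4.91 in control cells, and at 144 h 8.56, 8.16 and 8.22 in mir-429 cells and 4.13, 3.96 and 3.84 in control cells. The arms were apart at every time and furthest at 144 h. The averaged effect was at least 1.94 (2.22 ± 0.13 as measured, adjusted p = 7.53e-10), with control values below the array medians at 24 and 144 h. The differences there were at least 0.40 and 4.08 (0.98 and 4.33 as measured).

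Other genes chosen for their time dependence had early effects. SPAG1, which helps assemble dynein arms, differed by 1.85, 1.66 and 0.15 at 24, 48 and 144 h, and PANX1, which forms membrane channels that release ATP, by -2.21, -1.85 and -0.13. For PANX1, of its 2 other probe sets above the filter 1 gave -1.90, -1.90 and -0.52 and the other 0.24, -0.16 and 0.02. TMEM200A, a membrane protein, and ANK3, ankyrin-G of lateral membranes, differed between the arms mainly at 48 h, by 2.28 and -2.15. Means of ANK3 at 24 and 48 h were 5.58 and 5.52 in mir-429 cells and 5.78 and 7.68 in control cells. ANK3 lost its shared sign after cyclic loess or quantile normalization. It lost it also without control replicate 2, mir-429 replicate 1 or mir-429 replicate 3 at 144 h. Without 48 h their averages were 0.21 and -0.12 (adjusted p = 0.153 and 0.281).

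Some large averages belonged to genes without a shared sign. ZNF165, a zinc finger protein, had 7.8, 7.81 and 7.82 in mir-429 cells and 4.64, 5.22 and 4.26 in control cells at 24 h, and 4.78, 4.84 and 5.18 in mir-429 cells and 4.85, 4.94 and 5.10 in control cells at 144 h. The arms were far apart at 24 h and overlapped at 144 h, where the difference was -0.03, and the average was 2.29 ± 0.21 as measured and at least 1.90 with the dim control values of 48 h raised. CXCL8, interleukin-8, differed by -1.14, -3.13 and 0.28, and the last did not pass the test (adjusted p = 0.329). CST6, a protease inhibitor, had dim control cells at 24 and 48 h, where it differed by at least 1.06 and 1.99 (1.63 and 2.74 as measured), and at 144 h both arms were dim. SLC16A9, a transporter of the monocarboxylate family, differed by 0.03 and -1.62 at 24 and 48 h, and at 144 h, where mir-429 cells were dim, by -0.89 with dim values raised (-1.27 as measured).

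The sign was followed at the time whose own difference had not been used to choose the genes. Of 628 genes called higher at both 24 and 48 h, 336 (53.5%) were also higher at 144 h, against 42.8% of all genes tested, and their median difference there was 0.02. Of 594 called lower at both, 426 (71.7%) were lower at 144 h, against 57.2% of all genes, with a median of -0.15. The calls at 144 h were few: 48 of the 628 were called higher there (7.64%, against 1.48% of all genes) and 22 lower, and 76 of the 594 were called lower (12.8%, against 4.37%) and 11 higher.

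Genes called at 144 h and at 1 earlier time kept their sign more often. All 59 genes called higher at 24 and 144 h were higher at 48 h, and 48 of them were called there, against 9.32% of all genes. Of 105 called lower at 24 and 144 h, 100 were lower at 48 h, and 76 were called, against 11.3%. At 24 h, 70 of 80 genes called higher at 48 and 144 h were higher (48 called, against 15% of all genes), and 153 of 195 called lower at both were lower (76 called, against 11.6%). Whichever time was left out, the 48 and 76 genes called there are by definition the genes called at every time, so these counts are not separate results. No test was made of these shares, since the filter on dim genes and the spread behind the calls used the arrays of all times.

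**Figure D5:**
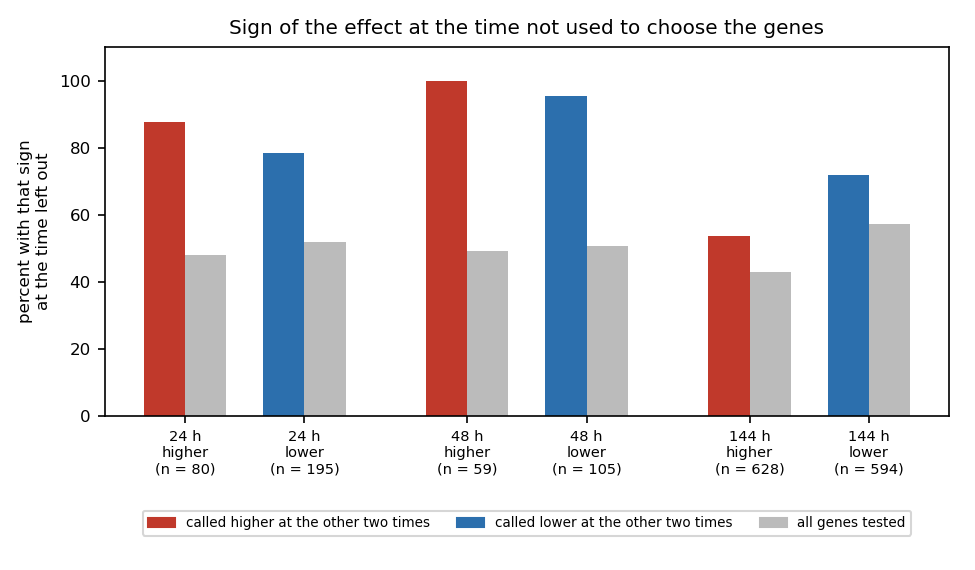
Percent of genes (vertical axis) with the given sign at the time left out, for genes called at the other times (red higher, blue lower) and for all genes tested (grey). At 144 h the share is 53.5% for higher and 71.7% for lower genes, against 42.8% and 57.2% of all genes, and at 48 h it is 100% and 95.2%.

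Other probes on the same RNA gave the same averaged sign for most same-direction genes. A further probe set above the filter existed for 611 of the higher genes, and its averaged difference was higher for 470 (76.9%), against 47.1% of 6642 genes tested with such a probe set. It was higher at every time for 253 (41.4%, against 14.1%). Of 847 lower genes with one, 681 (80.4%, against 53%) were lower on average and 395 (46.6%, against 20.1%) at every time. The 10 other probe sets of the 10 higher genes with the largest smallest effect, from 5 of these genes, were all higher at every time. Of the 3 other probe sets of the 10 lower genes, from ADAMTS5 and NREP, all were lower on average and 1 at every time. With the mean of all probe sets of a gene, dim ones included, the averaged effect was over 1.5 times smaller for 31 of the 84 named genes called in the average. FAM78B was then at -0.60, MAP7 at 1.17, PARD6B at 0.45 and COL8A1 at 0.78.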

How the data were processed

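The authors deposited log2 expression values per probe set for 21 arrays. The submitters' processing notes name RMA, with no version. The values as deposited were used, with no further scaling. Of 54675 probe sets, GEO's platform annotation gave 1 symbol to 41097, more than 1 to 1801 and no symbol to 11777. A RefSeq table (GRCh38.p14) was used to update symbols, and a gene was represented by its brightest single-symbol probe set. Genes above the array median on at least 3 arrays were tested, 12879 of 19775. Arrays give no read depth, and the 3 arrays per group limit the precision. limma 3.58.1 in R 4.3.3 (lmFit, eBayes) fitted a mean for each of 7 groups, with 14 residual degrees of freedom. Contrasts were mir-429 minus control at each time and their mean, and the time dependence was a moderated F test. Tests were two-sided with Benjamini-Hochberg adjustment over all genes tested. The limma script was tested on simulated data.

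Named genes were, per direction, the 10 same-direction genes with arms apart at every time and the largest smallest effect, 4 with the smallest p for time dependence, 2 called with an opposite sign at 1 time, up to 3 members per list, and, whatever their values, FN1, VIM, CDH1, CDH2, EPCAM, ZEB1 and ZEB2. The members and the 23 lists were chosen with earlier results of these data known. No 2 arrays held identical values. Deviations of same-numbered mir-429 and control arrays from their group means correlated between -0.13 and 0.28. Those of differently numbered arrays of a time correlated between -0.29 and 0.22, so replicate numbers were not used to pair arrays.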

Additional observations from a re-analysis of the deposited data

Results flagged for a closer look

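The size of the mir-429 effect differed among 24, 48 and 144 h, by the moderated F test adjusted over all genes, for 49 of the genes named above. For each the largest minus the smallest of its 3 differences on the log2 scale is given, as measured. Among genes higher on average it was 3.82 for ZNF165, 3.36 for GPR65, 2.80 for CST6, 2.58 for ZBED2, 2.53 for COL8A1, 2.09 for MAP7, 2.09 for TMEM200A, 2.04 for ESRP1 and 1.70 for SPAG1. The span was 1.59 for MCOLN3, 1.29 for PATJ, 1.27 for EXPH5, 1.22 for SCEL, 1.21 for PARD6B, 1.19 for FGFBP1, 1.15 for PKP2 and 1.01 for STARD4. The smallest spans of higher genes were 0.99 for TJP1, 0.98 for DDIT4, 0.96 for PMEPA1, 0.91 for PRCD, 0.82 for FGD6, 0.77 for TEAD1, 0.70 for KRT18, 0.63 for DSP and 0.43 for SLC2A1.

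Among genes lower on average the span was 3.42 for CXCL8, 2.55 for FN1, 2.46 for CXCL3, 2.35 for LOX, 2.26 for BCL2A1, 2.12 for OSTM1, 2.11 for ANK3, 2.08 for PANX1 and 2.01 for CXCL1. It was 1.97 for WIPF1, 1.93 for HMOX1, 1.65 for SLC16A9, 1.57 for ZEB1, 1.30 for FOXF1, 1.24 for LINC01704, 1.08 for CD93, 1.03 for CFL2 and 1.00 for NREP. The smallest spans of lower genes were 0.86 for SAMD9L, 0.83 for CTSS, 0.83 for FAP, 0.75 for DNER and 0.43 for SKA3. As measured, GPR65, SCEL, FGFBP1 and SKA3 had their largest difference at 144 h, and the others at 24 or 48 h.

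For 9 of these genes an arm lay below the array median at 1 time or more, so their spans as measured rest partly on dim values. With such values raised to the median the span was 3.67 for GPR65, 3.13 for ZNF165, 2.55 for ZBED2, 2.14 for CST6, 1.94 for SCEL, 1.93 for COL8A1, 1.51 for SLC16A9, 1.21 for PATJ and 0.22 for CD93. The order of GPR65 and ZNF165 was thereby turned, and CD93, with differences of -0.96, -1.02 and -1.18, then varied little among the times. The test of time dependence was not repeated for these genes with raised values.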

How the results depend on the processing

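The calls were recomputed under 33 alternatives. Of the alternatives that kept all times, none moved the same-direction counts by over 1.5 times, and leaving out single arrays gave 894 to 1126 higher and 1263 to 1684 lower, with 1412 to 1971 and 1677 to 2285 called in the average. The genes called at every time and the time dependence were less stable. Leaving out single arrays gave 28 to 63 higher and 40 to 92 lower genes called at every time and 1783 to 3781 with time dependence. The time dependence had its lowest count without mir-429 replicate 1 at 24 h. With the 3′ minus 5′ covariate the 3 counts were 24, 28 and 1555, and with array weights 117, 182 and 4892. The mean of all probe sets gave 44 lower at every time and 1793 with time dependence, and no filter 47 lower at every time. With a time left out, a call at every time needs only the other two. Without 24 h the counts were 75 higher, 205 lower and 1223 with time dependence, and 892 were higher in the average. Without 48 h 96 and 180 were called at every time, and without 144 h 508 and 463, with 181 time-dependent and 1729 same-direction higher. Replicate numbers did not pair the arrays by their deviations at every time. At 24 h same-numbered arrays correlated at 0.09 to 0.28 and differently numbered ones at -0.29 to 0.10. With the replicate number as a block, 1612 genes were higher and 1922 lower in the average, 1008 and 1434 in the same direction, and with a replicate block within time 1647, 2005, 1034 and 1472. Of the genes named, RFC5, a replication factor, was -0.21 as reported and 0.0411 with the mean of all probe sets (adjusted p = 0.62). Its fall rests on 1 probe set, since its other probe sets above the filter averaged 0.06 and 0.28. Why the probe sets differ was not tested. In 21 other cases an averaged effect of a named gene kept its direction and lost its call: with values raised to the array median (ENDOU), with the covariate (EBP, KDR), with the mean of all probe sets (ATF3, ANKRD37, IDI1) and otherwise without 1 of the times.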
